A study of Bos grunniens x Bos taurus and Bos grunniens with 6 samples.

Results

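The BCL2 family of apoptosis regulators was examined in testis tissue of cattle-yak and yak. Its members were taken by name, as the rows of the deposited expression table whose gene symbol was BCL2, BCL2L1, BCL2L2, BCL2L11, MCL1, BAX, BAK1, BAD, BID or BOK. These 10 symbols stood on 16 of the 18918 rows, because BCL2L1 was given to 6 gene identifiers and BCL2L11 to 2. RNA-seq libraries had been made from 3 cattle-yak (TES5, TES6 and TES7), which were F1 males from Jersey sires and Gannan yak dams, and from 3 Gannan yak males (Yak8, Yak9 and Yak10). Every animal was 4 years old, no treatment is named beyond the collection, each library came from 1 animal, and the groups came from different counties. The labels name castration as the source of the tissue, whereas the methods of the study give castration for cattle-yak and euthanasia for yak. County, genotype and, by the methods, the way of collection cannot be told apart in this design.

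The proteins of this family decide whether the outer membrane of the mitochondria is permeabilised in the intrinsic pathway of apoptosis. BAX and BAK1 are the effectors that form pores and release cytochrome c, and BOK is a related effector-like protein. BCL2, BCL2L1 (BCL-XL), BCL2L2 (BCL-W) and MCL1 hold the effectors in check, and the BH3-only proteins BAD, BID and BCL2L11 (BIM) bind the prosurvival proteins or the effectors and tip the balance towards death. In the testis the family takes part in the removal of surplus germ cells, and male mice without Bax or without Bcl2l2 are sterile. The comparison asked how the transcripts of these regulators differ between the sterile hybrid and the fertile parent breed.

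Expression was deposited as FPKM, the fragments of a gene scaled by the length of its model and by the depth of the library, after mapping of both groups to the yak genome. Gene-assigned fragments ranged from 11175100 to 11834987 per cattle-yak library and from 12991641 to 13136129 per yak library, so that a single fragment on 1 kb gave 0.0761 to 0.0895 FPKM. Genes with a mean of at least 0.5 FPKM over the 6 animals, 15042 in all, were tested with limma on log2 (FPKM + 1), and a gene was called when its Benjamini-Hochberg adjusted p was under 0.05 and its log2 (foldchange) beyond 1 in either direction. Over all tested genes the log2 (foldchange), cattle-yak over yak, had a median of 0.51, against 0.01 after median-of-ratios scaling, so values under both scalings are given where they differ in the call. With the deposited FPKM 5023 genes were called higher and 3136 lower in cattle-yak, and after median-of-ratios scaling 2660 higher and 4176 lower. The tissue makeup differed strongly between the groups. The summed level of 12 Sertoli markers was 2999 to 3186 FPKM in cattle-yak and 625.7 to 689.6 in yak, whereas the 5 elongating spermatid markers in the table summed to 13.3 to 68.8 FPKM in cattle-yak and 8133 to 9917 in yak. For such bulk tissue fewer cells of a type and less RNA per cell cannot be told apart, and the part of the cell makeup in the results was not tested. As a measured reference, the level of each member relative to the 12 Sertoli markers is given as well.

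Of the 16 rows 13 were tested and 3 lay under the minimum. Among the tested rows 5 were called higher in cattle-yak, where 33.4% of all tested genes were, and 0 were called lower, where 20.8% of all tested genes were. By the adjusted p alone, 9 of the 13 rows passed 0.05 in limma, against 81.9% of all genes. In the lower direction 2 rows passed an unadjusted p of 0.05, both of BCL2L1, and voom in limma on the recovered fragments called 1 of them. The groups did not overlap in 9 of the 13 rows, against 84.1% of all genes. The genes called higher were BCL2, BCL2L2, MCL1, BAX and BOK. The median log2 (foldchange) of the 13 rows was 0.39, under that of all genes, and over the most abundant row of each symbol it was 0.78. By role, 3 of 4 prosurvival genes and 2 of 3 effectors were called higher, and 0 of 3 BH3-only genes. Of these last, 1 (BID) passed an unadjusted p of 0.05 in limma, and voom called 0 of them. After median-of-ratios scaling 2 rows were called higher and 2 lower, where 17.7% and 27.8% of all genes were.

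**Figure D1:**
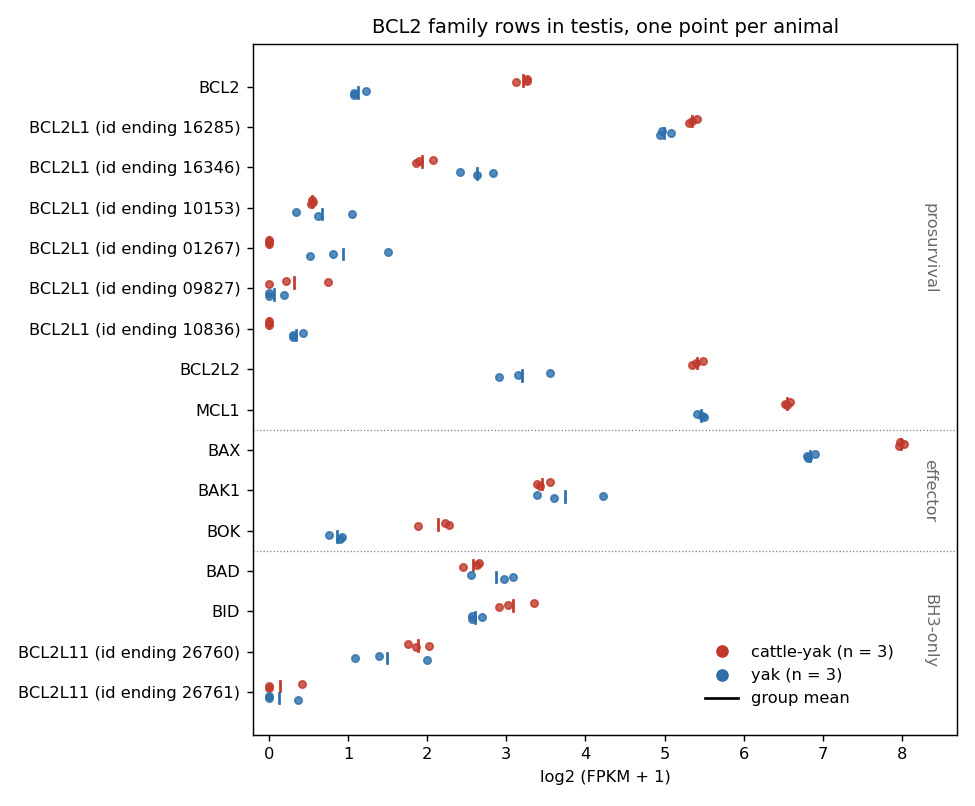
Level of each of the 16 rows as log2 (FPKM + 1) on the horizontal axis, with 1 point per animal (red for cattle-yak, blue for yak), a short vertical bar at the group mean, and rows ordered by role. BCL2, BCL2L2, MCL1, BAX and BOK are clearly apart with cattle-yak higher, BAK1 and BAD overlap, and most of the extra rows named BCL2L1 sit near 0.

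BCL2 (ENSBGRG00000019339), the founding prosurvival protein of the family, had 7.71, 8.56 and 8.62 FPKM in TES5, TES6 and TES7 and 1.10, 1.11 and 1.34 FPKM in Yak8, Yak9 and Yak10. The lowest cattle-yak animal thus lay well above the highest yak animal. The group means were 8.30 ± 0.51 and 1.18 ± 0.14 FPKM (SD, n = 3 each), a 7.02-fold ratio of means, and the log2 (foldchange) was 2.09 (limma, standard error SE 0.14, adjusted p = 2.9e-06). Scaled by median-of-ratios it was 1.64 and still called. The yak level rested on few reads, with 10, 10 and 12 fragments on a gene model of 690 bases, against 63 to 69 in cattle-yak. On the recovered fragments themselves, with no pseudocount of 1 FPKM, the log2 (foldchange) was 2.76. BCL2 lay at the 93.7 percentile of the changes of all tested genes.

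BCL2L2 (ENSBGRG00000006983), the prosurvival member that the mouse testis depends on, had 39.7, 41.2 and 43.7 FPKM in the cattle-yak animals and 6.51, 7.85 and 10.7 FPKM in the yak animals. The groups did not overlap, and the yak animals spread more widely than the cattle-yak animals in relative terms. Mean levels were 41.5 ± 2.04 and 8.36 ± 2.15 FPKM (SD, n = 3), and the log2 (foldchange) of 2.21 (limma, SE 0.17, adjusted p = 5.6e-06) lay at the 95.3 percentile of all tested genes. On this scale it exceeded that of BCL2, whereas by the ratio of means BCL2 differed more (7.02 against 4.97). With median-of-ratios scaling it was 1.63 and again called. Of the members, BCL2 and BCL2L2 alone were called higher under both scalings. Relative to the Sertoli markers they stood at −0.16 and −0.04 on the log2 scale, with neither difference past an adjusted p of 0.05 (0.306 and 0.837 from limma). These centred values carry the pseudocount of 1 FPKM, which lowers the change of low genes such as BCL2. The centring took 2.25 from each log2 (foldchange), whereas voom on the recovered fragments gave 2.76 for BCL2 and 2.34 for BCL2L2 before any centring.

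MCL1 (ENSBGRG00000000962), a short-lived prosurvival protein that restrains BAK1, was the most abundant prosurvival transcript in both groups. It had 92.1, 90.5 and 95.4 FPKM in cattle-yak and 44.3, 43.5 and 41.5 FPKM in yak. Replicates lay close together and the groups far apart, with means of 92.6 ± 2.49 and 43.1 ± 1.42 FPKM (SD, n = 3). The log2 (foldchange) was 1.09 (limma, SE 0.085, adjusted p = 7.0e-06), and 0.48 after median-of-ratios scaling, which is under the threshold of 1 for a call.

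BCL2L1, the prosurvival protein known as BCL-XL, was represented mainly by ENSBGRG00000016285, with a gene model of 1716 bases. This row had 38.5, 39.5 and 41.4 FPKM in cattle-yak and 29.8, 33.0 and 30.2 FPKM in yak. Every cattle-yak animal exceeded every yak animal, but the ratio of the means was only 1.28. The log2 (foldchange) of 0.35 (limma, SE 0.095, adjusted p = 8.2e-03) was under the threshold for a call and below the median of all genes. It turned to −0.25 after median-of-ratios scaling. Of the main prosurvival rows, BCL2L1 had the smallest change.

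What the remaining rows named BCL2L1 stand for is uncertain, since no sequence was at hand to tell copies from fragments of the main gene model. How reads were assigned among these rows was not tested. ENSBGRG00000016346 had 2.63, 2.72 and 3.20 FPKM in cattle-yak and 5.19, 6.11 and 4.34 FPKM in yak, so that it ran opposite to the main row without overlap between the groups. Its log2 (foldchange) was −0.68 (limma, SE 0.16, adjusted p = 4.0e-03), not called, and −1.17 and called lower after median-of-ratios scaling. ENSBGRG00000001267 was at 0 in all 3 cattle-yak animals and had 0.43, 0.75 and 1.84 FPKM in Yak8, Yak9 and Yak10, from 4, 7 and 17 fragments. Set against a floor of 3 fragments per library, which is 0.366 FPKM on its model of 711 bases, the mean in cattle-yak was at least 2.75-fold lower, and 17 of the 28 yak fragments came from 1 animal. Its fitted log2 (foldchange) of −0.94 (limma, adjusted p = 7.9e-03) missed the threshold of 1. It was −1.09 and called lower after median-of-ratios scaling, and was called lower as well without Yak8 (−1.16) and without Yak9 (−1.01). Without Yak10 it was −0.66, and it depends on the pseudocount. ENSBGRG00000010153 had 3 fragments in each cattle-yak animal and 4, 8 and 2 in the yak animals, with overlapping groups. The other two rows named BCL2L1 were under the minimum for the test. ENSBGRG00000010836 had 0 fragments in cattle-yak and 2, 2 and 3 in yak, and ENSBGRG00000009827 had 0, 4 and 1 fragments in cattle-yak and 0, 1 and 0 in yak. Both groups were near the floor in these rows, so no fold is given.

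BAX (ENSBGRG00000018680), the effector that moves from the cytosol to the mitochondria, was the most abundant member in every animal. It had 248.1, 259.7 and 250.6 FPKM in cattle-yak and 111.7, 110.5 and 118.5 FPKM in yak. The spread within a group was small against the gap between groups, with means of 252.8 ± 6.09 and 113.5 ± 4.30 FPKM (SD, n = 3). The log2 (foldchange) was 1.15 (limma, SE 0.082, adjusted p = 4.4e-06), close to that of MCL1. After median-of-ratios scaling it was 0.53, no longer past the threshold for a call.

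BAK1 (ENSBGRG00000022225), the effector resident in the mitochondrial outer membrane, did not pass the test. It had 9.75, 9.49 and 10.7 FPKM in cattle-yak and 11.1, 17.6 and 9.47 FPKM in yak, and the groups overlapped. Yak9 stood apart, while Yak8 lay just above and Yak10 just below the cattle-yak range. The log2 (foldchange) was −0.28 with a 95% interval from −0.76 to 0.20 (limma, adjusted p = 0.243), and −0.04 without Yak9. After median-of-ratios scaling BAK1 stood at −0.85 (limma, adjusted p = 0.0077), past 0.05 but under the threshold of 1 for a call.

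BOK (ENSBGRG00000001796) was the least abundant effector. It had 2.71, 3.85 and 3.68 FPKM in cattle-yak and 0.864, 0.892 and 0.694 FPKM in yak, with no overlap. From 96 to 129 fragments lay behind the cattle-yak values and 27 to 35 behind the yak values. The ratio of the means was 4.18, while on the log2 (FPKM + 1) scale, which understates the change of low genes, the log2 (foldchange) was 1.27 (limma, SE 0.16, adjusted p = 1.3e-04). Median-of-ratios scaling brought it to 0.89, just under the threshold.

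Among the BH3-only genes, BID (ENSBGRG00000000828), which links death receptors to the mitochondria, had 6.49, 7.12 and 9.16 FPKM in cattle-yak and 4.94, 5.47 and 4.92 FPKM in yak. The groups did not overlap, although TES7 was set apart from the other cattle-yak animals. Its log2 (foldchange) of 0.48 (limma, SE 0.15, adjusted p = 1.9e-02) was near the median of all genes and was −0.05 after median-of-ratios scaling. The adjusted p of BID in limma was over 0.05 without TES7 (0.067), without Yak8 (0.059) and without Yak10 (0.057). BAD (ENSBGRG00000026694), whose protein is inactivated by survival kinases and 14-3-3 proteins, had 4.48, 5.18 and 5.31 FPKM in cattle-yak and 6.85, 7.52 and 4.86 FPKM in yak, with Yak10 inside the cattle-yak range. The log2 (foldchange) of BAD was −0.29 with a 95% interval from −0.69 to 0.11 (limma, adjusted p = 0.150). After median-of-ratios scaling it was −0.82 (limma, adjusted p = 0.0029), and BAD was not called under either scaling.

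BCL2L11, which encodes the BH3-only protein BIM, had 2.62, 3.07 and 2.39 FPKM in cattle-yak and 2.99, 1.12 and 1.64 FPKM in yak in its main row (ENSBGRG00000026760). Yak8 lay inside the cattle-yak range and the other yak animals below it. The values rest on 9 to 24 fragments an animal, and the log2 (foldchange) was 0.39 with a 95% interval from −0.16 to 0.94 (limma, adjusted p = 0.160). The second row of that name (ENSBGRG00000026761) had 1 fragment in TES7 and 1 in Yak8 and 0 elsewhere. Without Yak8 the log2 (foldchange) of the main row was 0.64 (limma, adjusted p = 0.018). With any other animal omitted it ran from 0.19 to 0.45, and no adjusted p from limma was under 0.05. After median-of-ratios scaling of all animals it was −0.03.

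**Figure D2:**
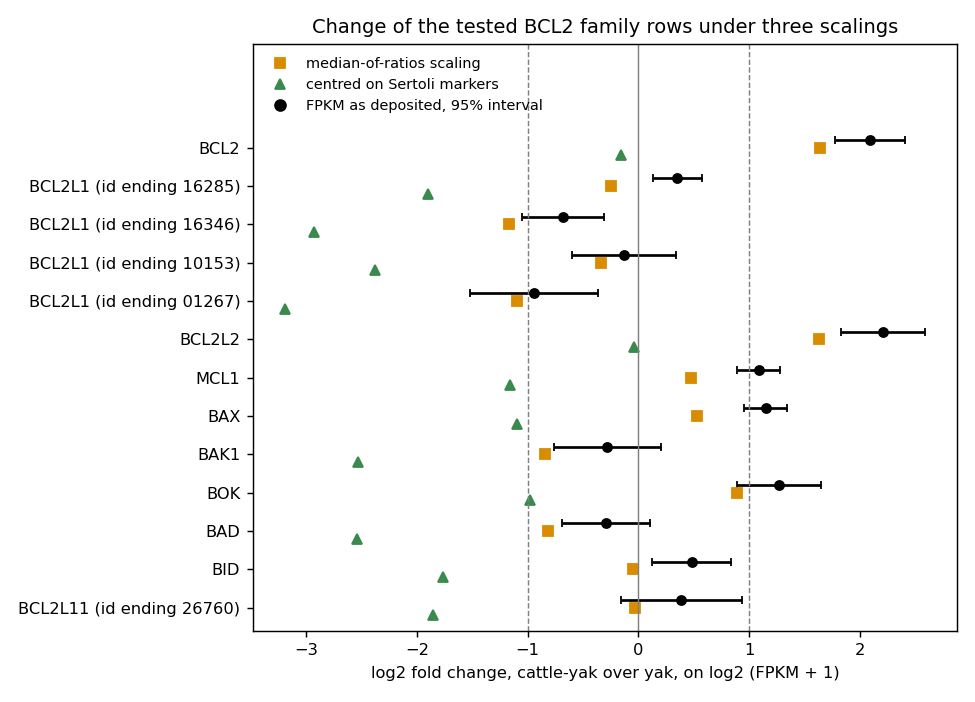
Log2 (foldchange) of the 13 tested rows, cattle-yak over yak, on the horizontal axis: black circles with 95% intervals from limma for the deposited FPKM, orange squares after median-of-ratios scaling, green triangles after centring each library on 12 Sertoli markers. Dashed lines mark −1 and 1, and BCL2 and BCL2L2 are the only rows whose orange squares stay right of 1, while all green triangles lie left of 0.

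On the Sertoli-centred scale the log2 (foldchange) of all tested genes had a median of −1.74, with 0.186% called higher and 74.3% called lower. The members ran from −3.19 for ENSBGRG00000001267 of BCL2L1 to −0.04 for BCL2L2, with 0 rows called higher and 10 lower. BOK stood at −0.97, BAX at −1.10 and MCL1 at −1.16 on that scale. This centring takes the same 2.25 from the log2 (foldchange) of every gene, so any gene with a smaller increase turns negative by construction. The directions given above are relative to the whole library.

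Within a library the members can be compared without any scaling between libraries. Levels are per base of gene model, and several models are short (690 bases for both BCL2 and BCL2L2). The 16 rows summed to 455.3 to 475.1 FPKM in cattle-yak and 226.9 to 236.9 FPKM in yak. The prosurvival genes made up 38.9% to 40.6% of this sum in cattle-yak and 38.8% to 39.6% in yak, and the effectors 55.8% to 57.8% and 54.5% to 55.8%. The shares of these roles thus differed little between the groups. The BH3-only genes made up 2.99% to 3.62% in the cattle-yak libraries and 4.95% to 6.64% in the yak libraries. Their summed level was 13.6 to 17.2 FPKM in the cattle-yak animals and 11.4 to 15.1 FPKM in the yak animals, and these ranges overlapped.

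The makeup of the prosurvival class differed. MCL1 held 49.3% to 50.9% of the prosurvival FPKM in cattle-yak and 45.9% to 50.3% in yak, with overlap between the groups. BCL2L1 (all rows summed) held 23.0% to 23.6% in the cattle-yak libraries and 40.8% to 44.1% in the yak libraries. BCL2L2 held 21.9% to 22.7% and 7.39% to 11.8%, and BCL2 4.26% to 4.66% and 1.18% to 1.48%. BCL2L1 thus took the smaller share in cattle-yak, and BCL2L2 and BCL2 the larger one, without overlap in these 3 genes. Among the effectors BAX held 94.6% to 95.2% of the FPKM in cattle-yak and 85.6% to 92.1% in yak. BAK1 held 3.47% to 4.05% and 7.36% to 13.7%.

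**Figure D3:**
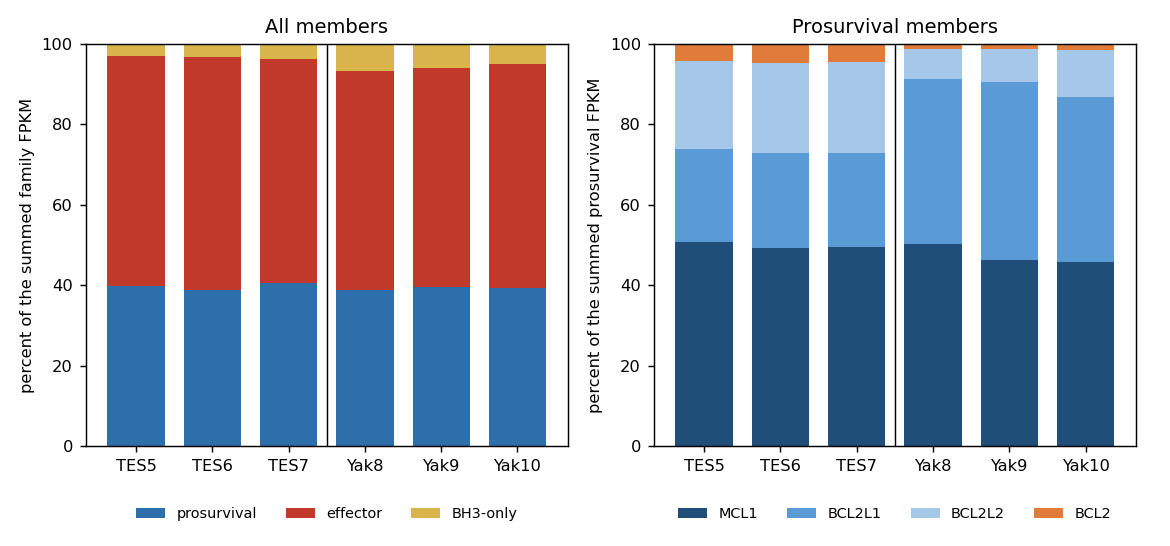
Percent of the summed family FPKM by role (left) and percent of the summed prosurvival FPKM by gene (right) in each of the 6 libraries, cattle-yak left and yak right of the vertical line. The prosurvival share lies between 38.8% and 40.6% in all 6 libraries, while within it BCL2L1 takes 23.0% to 23.6% in the cattle-yak libraries and 40.8% to 44.1% in the yak libraries.

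The order of the levels changed accordingly. In both groups BAX came first and MCL1 second, neither overlapping the gene below it. In cattle-yak BCL2L2 and BCL2L1 followed with overlapping values, then BAK1, then BCL2 and BID, which overlapped, then BAD, and last BOK and BCL2L11, which overlapped. In yak BCL2L1 came next after MCL1, and BAK1, BCL2L2, BAD and BID followed, each overlapping its neighbour. BCL2L11 and BCL2 overlapped below them, and BOK was lowest, under every BCL2 value.

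Ratios between an effector and a prosurvival partner were taken within each library for 2 pairs, and other pairs were not tested. BAX exceeded BCL2 by 32.2, 30.3 and 29.1 times in cattle-yak and by 101.2, 99.9 and 88.5 times in yak. The ratio was thus lower in each cattle-yak animal, by 1.66 on the log2 scale or 3.16-fold. This does not hold for every partner of BAX. As a ratio of means, cattle-yak over yak, BAX stood at 2.23, BCL2 at 7.02 and BCL2L2 at 4.97. MCL1 stood at 2.15 and the main BCL2L1 row at 1.28, so that BAX was not lower in cattle-yak relative to these. BAK1 to MCL1 was 0.106, 0.105 and 0.113 in cattle-yak and 0.251, 0.406 and 0.228 in yak. It was again lower in each cattle-yak animal, with a log2 difference of −1.41 or 2.65-fold. The exact permutation test over the animals (two-sided) gave p = 0.1 for each of the 2 ratios, also after Benjamini-Hochberg adjustment over the pair, which is the smallest p that 3 animals against 3 allow.

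**Figure D4:**
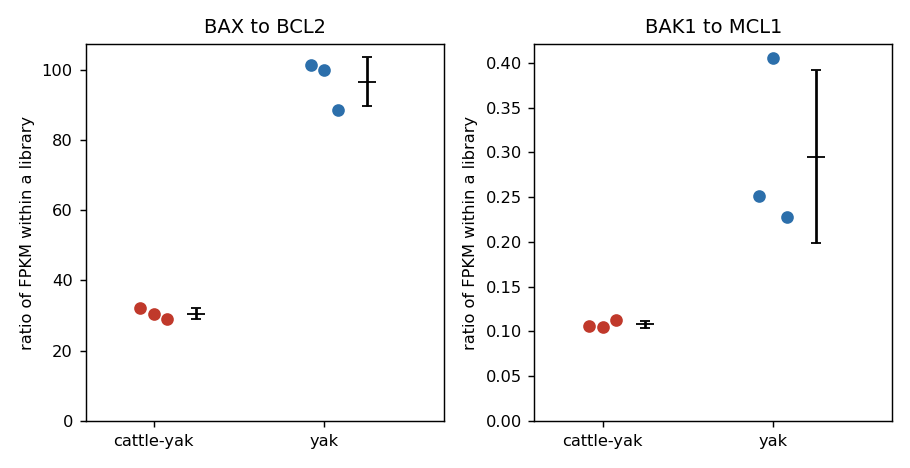
Ratio of FPKM within a library for BAX to BCL2 (left) and BAK1 to MCL1 (right), both on linear axes from 0, with 1 point per animal and the mean ± SD (n = 3) beside it. The cattle-yak animals lie between 29.1 and 32.2 and the yak animals between 88.5 and 101.2 on the left, and the groups are apart on the right as well.

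Relatives of the family outside the 10 symbols were counted over a list of 15 genes, 13 of which were in the table and 12 tested. Called higher were 2, called lower 1 and not called 9, with a median log2 (foldchange) of 0.33, where 33.4% of all tested genes were called higher and 20.8% lower and the median was 0.51. BCL2L14 (ENSBGRG00000000335), a relative with a BH3 region and a debated role in apoptosis, showed by far the largest change of the list. It had 1.06, 0.431 and 0.351 FPKM in cattle-yak and 53.5, 55.3 and 64.8 FPKM in yak, a log2 (foldchange) of −5.21 (limma, SE 0.19, adjusted p = 1.9e-07). BCL2L13 (ENSBGRG00000000778), a mitochondrial protein that also serves as a receptor for mitophagy, had 41.2, 43.2 and 41.6 FPKM against 12.1, 12.9 and 14.8. Its log2 (foldchange) was 1.60 (limma, adjusted p = 3.4e-06). PMAIP1 (ENSBGRG00000015982), the p53-induced BH3-only protein NOXA that binds MCL1, had 3.07, 3.25 and 4.70 FPKM against 0.923, 1.39 and 1.40. The log2 (foldchange) of 1.05 (limma, adjusted p = 8.7e-04) fell under 1 without TES7 (0.90), without Yak8 (0.95) and after median-of-ratios scaling (0.64).

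The list for the mitochondrial death pathway held, among others, outer membrane channels, caspases and inhibitors of apoptosis. Of its 15 genes, all tested, 7 were called higher, 1 lower and 7 not, with a median of 0.64. Over all tested genes 33.4% were called higher and 20.8% lower. AIFM1 (ENSBGRG00000025797), a flavoprotein of the intermembrane space that can be released during cell death, had 76.0, 77.8 and 90.8 FPKM in cattle-yak and 15.01, 12.6 and 15.7 FPKM in yak. Its log2 (foldchange) was 2.42 (limma, adjusted p = 7.6e-07). The voltage-dependent anion channels of the outer membrane did not share a direction. VDAC1 (ENSBGRG00000001004) had 197.2, 202.4 and 215.7 FPKM against 37.8, 34.3 and 43.9, a log2 (foldchange) of 2.38 (limma, adjusted p = 5.3e-07). VDAC3 (ENSBGRG00000007025) had 40.1, 35.3 and 37.6 FPKM against 76.9, 92.3 and 85.2, a log2 (foldchange) of −1.15 (limma, adjusted p = 1.6e-05). VDAC2, added after its values were seen and given by the most abundant of its 3 rows, stood at −0.87 (limma, adjusted p = 5.1e-05), which was not called, and at −1.49 and called lower after median-of-ratios scaling. The calls of AIFM1, VDAC1 and VDAC3 held under median-of-ratios scaling, under which 6 genes of the list were higher and 3 lower, against 17.7% and 27.8% of all genes.

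Regulators of the members were counted over 21 genes, 20 of which were in the table and tested. Called higher were 7, called lower 3 and not called 10, and the median was 0.29, against the 33.4% higher and 20.8% lower of all tested genes. USP9X, a deubiquitinase that stabilises the MCL1 protein, had 48.8, 68.5 and 64.0 FPKM in cattle-yak and 13.7, 12.2 and 13.6 FPKM in yak in the more abundant of its 2 rows (ENSBGRG00000018694). The log2 (foldchange) was 2.11 (limma, adjusted p = 3.2e-06). YWHAB (ENSBGRG00000014421), a 14-3-3 protein of the kind that retains phosphorylated BAD in the cytosol, had 200.4, 246.9 and 232.5 FPKM against 53.7, 50.3 and 59.6, a log2 (foldchange) of 2.03. PIM1 (ENSBGRG00000009828), a kinase that phosphorylates BAD, went the other way, with 23.9, 29.4 and 24.6 FPKM in cattle-yak and 81.9, 79.95 and 88.3 FPKM in yak. The log2 (foldchange) of PIM1 was −1.65 (limma, adjusted p = 2.9e-06). DYNLL2 (ENSBGRG00000015060), a dynein light chain that tethers BH3-only proteins, had 328.9, 314.5 and 266.6 FPKM against 774.2, 784.0 and 818.5, a log2 (foldchange) of −1.39. These 4 genes were called in the same direction after median-of-ratios scaling. The other 14-3-3 genes of the list did not share the change of YWHAB. YWHAZ stood at 0.66, YWHAE at 0.65 and the most abundant of the 4 YWHAQ rows at −0.02, none of them called under either scaling.

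**Figure D5:**
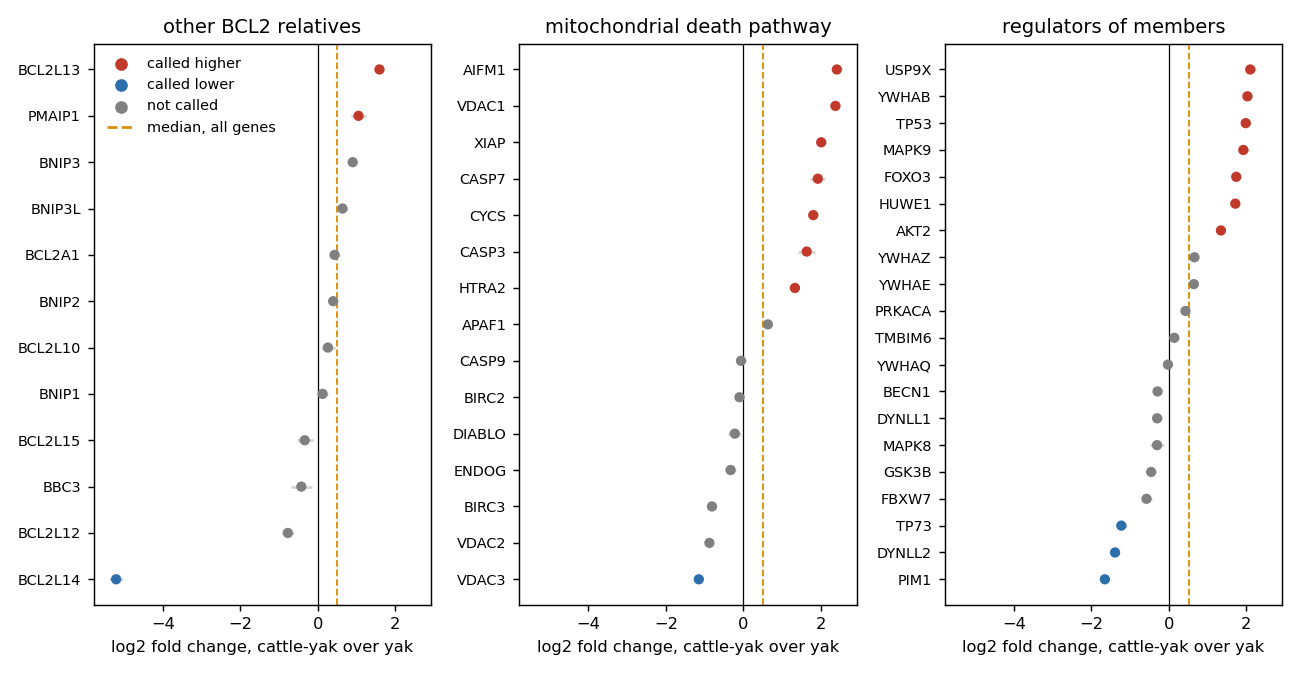
Log2 (foldchange), cattle-yak over yak, of the tested genes of the 3 lists around the family, with grey bars for the standard error, red for genes called higher, blue for called lower and grey for not called. The dashed line marks the median of all tested genes at 0.51, and BCL2L14 lies farthest to the left at −5.21.

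For the most abundant gene of each role, the genes with the most similar pattern were sought among 14671 tested genes with a symbol, by the root mean square difference of centred log2 (FPKM + 1) over the 6 animals. Among the nearest to MCL1 were EPRS1 (0.027) and ZC3H4 (0.035). Among those nearest to BAX were MTSS1 (0.037) and FOXN2 (0.039), and the nearest to BID were SUMO2 (0.055), CBSL (0.062) and PDSS2 (0.065). The neighbours of BAX and BID depended on the processing more than those of MCL1. After median-of-ratios scaling 1 of the 3 genes nearest to BAX and 0 of the 3 nearest to BID were again among the nearest. For MCL1 all 3 were. With a pseudocount of 0.1 this held for 0 of the 3 near BAX, 2 of the 3 near BID and 2 of the 3 near MCL1.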

How the data were processed

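Testis RNA-seq libraries, 1 per animal and 3 per group, were grouped by the labels. The authors used Trimmomatic for trimming and HISAT2 for mapping to the yak assembly LU_Bosgru_v3.0, and deposited FPKM, which their methods credit to Cufflinks, without stated scaling between libraries (tool versions are not given in the sources used here). A reference made of yak sequence could lower the mapping of cattle alleles, which was not tested. Ratios between libraries gave whole fragments for 17973 of 18918 genes. A gene was accepted only where its values came within at most 0.03 of whole numbers, so their closeness to whole numbers is no check of the recovery. limma 3.58.1 (R 4.3.3, lmFit, eBayes with trend, two-sided) was fitted over all 15042 genes, and checked on simulated data. That simulation changed few genes, equally in both directions, so it does not bear on the choice of scaling. Ratios were compared with exact permutation tests. Python 3.11.15 and matplotlib 3.10.9 served for the rest. Where a symbol stood on several rows, each row was kept and the most abundant represented the symbol in counts. All member rows were named, with up to 2 called genes per direction of each list and the 3 nearest patterns per role. Some of these results are not reported here. Members and lists were chosen with earlier results of these data known. Alternatives were pseudocounts of 0.1 and 0.01, no filter or 5 FPKM, scaling by TPM, by quantiles, by median-of-ratios or to the Sertoli markers, no trend, a robust prior, voom on the fragments, and omission of each animal. Histology and chromosome positions were not used here.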

Additional observations from a re-analysis of the deposited data

How the results depend on the processing

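The number of members called higher (5) and lower (0) in cattle-yak moved to 2 and 2 with median-of-ratios scaling, to 0 and 10 with Sertoli-centred scaling, and to 3 higher with a minimum of 5 FPKM, which leaves BCL2 and BOK untested. With a pseudocount of 0.1 or 0.01, TPM scaling or voom, 1 row was called lower, the BCL2L1 row ENSBGRG00000001267. With each animal omitted, 5 were higher and 0 to 1 lower.

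Among relatives of the family (2 higher, 1 lower), 1 was higher with a minimum of 5 FPKM, median-of-ratios scaling or quantile normalization, 2 were lower with median-of-ratios scaling, 0 were higher and 11 lower with Sertoli-centred scaling, and 1 to 3 were higher with an animal omitted. Of the mitochondrial death pathway 3 were lower with median-of-ratios scaling, and 0 higher and 8 lower with Sertoli-centred scaling. Of the regulators these numbers were 5, 0 and 13.

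Signs turned with median-of-ratios scaling for the main BCL2L1 row (−0.25), BID (−0.053) and BCL2L11 (−0.031). With Sertoli-centred scaling they turned for BCL2 (−0.16), the main BCL2L1 row (−1.90), BCL2L2 (−0.039), MCL1 (−1.16), BAX (−1.10), BOK (−0.97), BID (−1.77), BCL2L11 (−1.86), BCL2L13 (−0.65), PMAIP1 (−1.19), USP9X (−0.14) and YWHAB (−0.21). ENSBGRG00000010153 of BCL2L1 ran from −0.291 to 0.061 with an animal omitted, positive without Yak9. The Sertoli-centred values are lower than the deposited scale by the same 2.25 for every gene. Median-of-ratios scaling divided TES5, TES6 and TES7 by 1.22, 1.26 and 1.24, and Yak8, Yak9 and Yak10 by 0.82, 0.79 and 0.81. This division lowers the levels of cattle-yak and raises those of yak, so a small enough increase turns negative by construction. The cause of the remaining changes was not tested. With an animal omitted, the log2 difference of BAX to BCL2 ran from −1.72 to −1.62 and that of BAK1 to MCL1 from −1.57 to −1.15, and with 1 FPKM added to both genes they were −0.943 and −1.37. BAX, BCL2, BAK1 and MCL1 each stood on 1 row, so summing the rows of a symbol could not change either ratio.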

Other observations

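Of the genes to which the deposited annotation gives the KEGG term Apoptosis, a list chosen after its values were seen and holding 14 of the 16 family rows, 122 were tested. Of these 61 (50.0%) were called higher in cattle-yak and 9 (7.38%) lower, against 33.4% and 20.8% of all tested genes, and the median log2 (foldchange) was 1.04 against 0.51. These counts were made on the deposited FPKM and were not repeated after median-of-ratios scaling. BCL2L2 and BOK did not carry the term in that annotation.

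Markers of other testis cells moved in both directions. The 6 Leydig markers in the table were all called higher, with summed levels of 10434 to 12423 FPKM in cattle-yak and 3340 to 4864 in yak, and so were the 6 myoid markers (586.4 to 791.3 against 126.6 to 156.3 FPKM). Of 7 spermatogonia markers 6 were called higher (282.1 to 348.4 against 74.8 to 90.5 FPKM), of 6 spermatocyte markers 1 higher and 1 lower (156.3 to 242.3 against 267.2 to 276.2 FPKM), and all 5 round spermatid markers lower (11.5 to 54.3 against 1145 to 1227 FPKM). Of 7 endothelial markers 3 were higher and 1 lower (42.8 to 62.8 against 32.91 to 38.998 FPKM), and of 6 macrophage markers 2 higher and 2 lower (38.1 to 51.4 against 93.5 to 105.9 FPKM).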
